A study of Mus musculus with 62 samples.

Results

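Mitochondrial carriers of the SLC25 family were examined in 2 brain regions, PFC (prefrontal cortex) and NAc (nucleus accumbens), of mice with multimodal chronic restraint stress (mCRS) and of control mice without stress (CTR). The family was taken as every gene in the deposited counts whose Ensembl identifier carries a mouse symbol beginning with Slc25a and a number, which gave 36 of the 11121 genes listed. The annotation holds 48 symbols of this form, and the other 12 (Slc25a2, Slc25a13, Slc25a21, Slc25a24, Slc25a31, Slc25a41, Slc25a43, Slc25a45, Slc25a47, Slc25a48, Slc25a54 and Slc25a5-ps) were not analysed here. All animals were male C57BL/6j wild-type mice, aged 15 weeks when the tissue was taken, and no transgene or deletion is part of the design. The mCRS groups had gone through several weeks of daily restraint under changing conditions, and the CTR groups had not. RNA was sequenced by BRB-seq, a bulk method that reads the 3′ end of polyadenylated transcripts from barcoded oligo-dT primers. There were 15 PFC CTR, 15 PFC mCRS, 16 NAc CTR and 16 NAc mCRS libraries, each from tissue of 1 hemisphere of 1 animal. All mice, CTR included, had also been through tests of behaviour. Both regions were taken from the same mice, but the sources do not say which PFC and NAc library share a mouse, and each library was treated as independent of the others.

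SLC25 carriers are nuclear-encoded proteins that mostly sit in the inner mitochondrial membrane and move nucleotides, phosphate, amino acids, carboxylic acids and cofactors between the matrix and the cytosol. ATP made by the respiratory chain leaves the matrix through the adenine nucleotide translocators, and phosphate enters through its own carrier. In brain, carriers of glutamate, aspartate and malate also link transmitter metabolism to the mitochondrial NADH pool. The protein is built from 3 similar repeats, and each repeat carries a signature in its first membrane helix.

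The signature can be read from the codons of the annotated transcripts: a proline codon, any codon, an aspartate or glutamate codon, a pair of any codons, and a lysine or arginine codon. In the longest complete coding sequence of each of the 36 genes (GENCODE annotation of GRCm38), 21 held 3 such runs of 18 bases, 7 held 2, 5 held 1, and 3 (Slc25a46, Slc25a51 and Slc25a53) held none of this exact form. Of the 82 runs, 58 had an aspartate and 24 a glutamate codon at the acidic place, and 64 had a lysine and 18 an arginine codon at the basic place. The runs below are those of 5 carriers on which the results turn, given 5′ to 3′ on the coding strand, with the proline, acidic and basic codons in capitals and the number of the proline codon after the name.
Slc25a4, codon 28: CCGatcGAGagggtcAAA
Slc25a4, codon 133: CCGctgGACtttgctAGG
Slc25a4, codon 230: CCGtttGACactgttCGT
Slc25a5, codon 28: CCCatcGAGagggtcAAG
Slc25a5, codon 133: CCTcttGATtttgccCGT
Slc25a5, codon 230: CCTtttGACacggttCGC
Slc25a3, codon 81: CCTctaGATctcattAAA
Slc25a3, codon 178: CCTatgGAAgctgctAAA
Slc25a22, codon 28: CCCatcGACctggctAAG
Slc25a22, codon 123: CCCatgGAGatgctgAAG
Slc25a22, codon 245: CCTtgtGATgtggtgAAG
Slc25a23, codon 204: CCTctgGACcgactcAAG
Slc25a23, codon 298: CCCatgGAGgtactaAAG
The runs of Slc25a4 and Slc25a5 start at the same codon numbers in both genes. The first run of Slc25a23 starts later than that of the shorter carriers, and its coding sequence of 467 codons is longer than the 323 codons of Slc25a22 and the 298 codons of Slc25a4.

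Library totals ranged from 945286 to 4857359 counts. The share of all counts that fell on the 36 carriers was 0.411% ± 0.0519 (SD, n = 15) in PFC CTR, 0.418% ± 0.0521 (SD, n = 15) in PFC mCRS, 0.463% ± 0.0543 (SD, n = 16) in NAc CTR and 0.468% ± 0.0400 (SD, n = 16) in NAc mCRS libraries. Genes of the mitochondrial DNA (mtDNA) took a mean of 12.9%, 16%, 10.3% and 10.6% of the counts in the same order. Of the counts outside the mtDNA the carriers made up 0.471% ± 0.0517, 0.498% ± 0.0553, 0.516% ± 0.0617 and 0.524% ± 0.0431 in the same order, and no test was run on these sums. The dissections were checked with marker genes. Summed over 9 genes of striatal projection neurons, NAc CTR libraries lay between 510.5 and 8218 CPM (counts scaled to a common library size, with TMM factors) and PFC CTR libraries between 267.8 and 1262 CPM. Summed over 5 genes of cortical excitatory neurons, the ranges were 9.32 to 272 CPM in NAc CTR and 774 to 1434 CPM in PFC CTR. One library, NAc CTR 7, held 510.5 CPM of the striatal genes, where the next lowest NAc CTR library held 3507 CPM. Another, NAc mCRS 10, held 23710 CPM of 2 choroid plexus genes, against at most 452 CPM in the other NAc libraries. Results below were therefore also computed without each of these libraries. In tissue RNA, fewer cells of a type and less RNA per cell cannot be told apart.

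The carriers of adenine nucleotides and phosphate held most of the signal. These 8 genes took 69.8% of all carrier counts, led by Slc25a4 (30.9%), the adenine nucleotide translocator of heart, muscle and brain. Slc25a3, the phosphate carrier, took 18.3% and Slc25a5, another adenine nucleotide translocator, 11%. Slc25a23, a calcium-regulated carrier that exchanges ATP-Mg for phosphate, took 5.88%. Its relative Slc25a25, the peroxisomal cofactor carrier Slc25a17, and Slc25a16 and Slc25a42, both linked to coenzyme A, each took 1.42% or less.

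The other groups held smaller shares. The carriers of aspartate and glutamate took 8.47%, with the glutamate carrier Slc25a22 in front (4.88%), followed by the aspartate-glutamate carrier Slc25a12 (2.38%) and the second glutamate carrier Slc25a18 (1.2%). The carriers of other di- and tricarboxylates took 5.41%, mostly Slc25a11, which exchanges 2-oxoglutarate for malate (3.62%), and Slc25a1, the citrate carrier (1.29%). In the same group were the dicarboxylate carrier Slc25a10 and the less known Slc25a34 and Slc25a35. Carriers of cofactors, nucleotides, iron and glutathione took 9.17% in 11 genes. Among them were Slc25a39 and Slc25a40 (glutathione), Slc25a33 and Slc25a36 (pyrimidine nucleotides), Slc25a51 (NAD), Slc25a28 and Slc25a37 (iron), Slc25a26 (S-adenosylmethionine), Slc25a32 (folate and flavin) and Slc25a53, which was listed with them. Carriers of amino acids and acylcarnitine took 2.98%, namely Slc25a44 (branched-chain amino acids), Slc25a38 (glycine), Slc25a20 (acylcarnitine), Slc25a29 (basic amino acids) and Slc25a15 (ornithine). The uncoupling-protein-like Slc25a14, Slc25a27 and Slc25a30 took 2.33%. Slc25a46, an outer membrane member that acts in mitochondrial dynamics, took 1.88%. These are shares of 3′ tags and not of protein.

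Zeros were more frequent among carriers of low count. The 62 libraries gave 2232 values for the 36 carriers, of which 290 (13%) were 0. By counting error alone, a count of 0 allows up to 3 counts. That is 0.618 CPM in the deepest and 3.17 CPM in the shallowest library. Zeros also fell where more counts were expected, as given below, so a 0 does not set this limit on the level of a gene. Zeros made up 8.68% of the values in NAc CTR, 10.4% in NAc mCRS, 15.2% in PFC CTR and 18.1% in PFC mCRS. Of all genes listed, a mean of 90.2%, 88.5%, 87.1% and 82.3% had a count above 0 in the same order. The order of the groups was thus shared with all genes, and whether the carriers differ from them was not tested. At the mean level of the gene and the size of the library, 2152 values should have reached at least 10 counts, and 238 of these were 0, in 25 of the carriers. The 11 carriers without any zero were Slc25a3, Slc25a4, Slc25a5, Slc25a11, Slc25a12, Slc25a14, Slc25a18, Slc25a22, Slc25a23, Slc25a44 and Slc25a46.

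The middle of the range held carriers that were found in nearly every library with a wide scatter. Slc25a11 reached from 93.6 over a median of 168 to 375 CPM in NAc CTR, from 34.7 over 166 to 449 CPM in NAc mCRS, from 49.3 over 135 to 209 CPM in PFC CTR and from 32.2 over 144 to 413 CPM in PFC mCRS libraries. Slc25a12, whose activity depends on calcium, had medians of 96.9, 120, 80.2 and 119 CPM in the same order, and its lowest library held 17.7 and its highest 244 CPM. The 4 groups overlapped for both genes. Slc25a46 had medians of 52.7 CPM in NAc CTR, 63.8 in NAc mCRS, 99.6 in PFC CTR and 94.9 in PFC mCRS libraries, and Slc25a14 had medians of 29.7, 45.6, 59.5 and 89.0 CPM. Both medians were thus higher in the PFC groups, though single libraries ran from 9.55 to 205 CPM for Slc25a46 and from 0.553 to 189 CPM for Slc25a14. The glutathione carrier Slc25a39 went the other way, with medians of 87.2 and 72.4 CPM in the NAc and 46.7 and 47.8 CPM in the PFC groups (CTR, then mCRS). Slc25a44 was nearly level, with medians of 63.7, 64.3, 65.1 and 69.5 CPM.

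At the low end, Slc25a35 was at 0 in 36, Slc25a34 in 33, Slc25a40 in 26 and Slc25a37 in 24 of the 62 libraries. Slc25a35 was at 0 in 9 NAc CTR, 5 NAc mCRS, 9 PFC CTR and 13 PFC mCRS libraries, and yet reached 64.7 CPM in 1 NAc mCRS library.

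The spread between libraries of a group, given by edgeR as the biological coefficient of variation, ran from 0.28 for Slc25a4 to 2.57 for Slc25a35. This spread was close to or somewhat below that of other genes at the same level. For the 10 carriers at a mean log2 CPM of 2 to 4 the median coefficient was 1.94, where all 2323 genes of that range had 2.0. It was 1.01 against 1.18 for the 15 carriers at 4 to 6 and 0.59 against 0.62 for the 8 at 6 to 8. For the 3 carriers at 8 to 11 it was 0.31 against 0.37. For Slc25a35 and Slc25a37, 5 of the 62 libraries held 50% of the summed CPM, while 27 libraries held that share for Slc25a4. Reads were counted without molecular identifiers, so copies made by PCR are part of these counts and counting intervals cover counting error only.

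**Figure D1:**
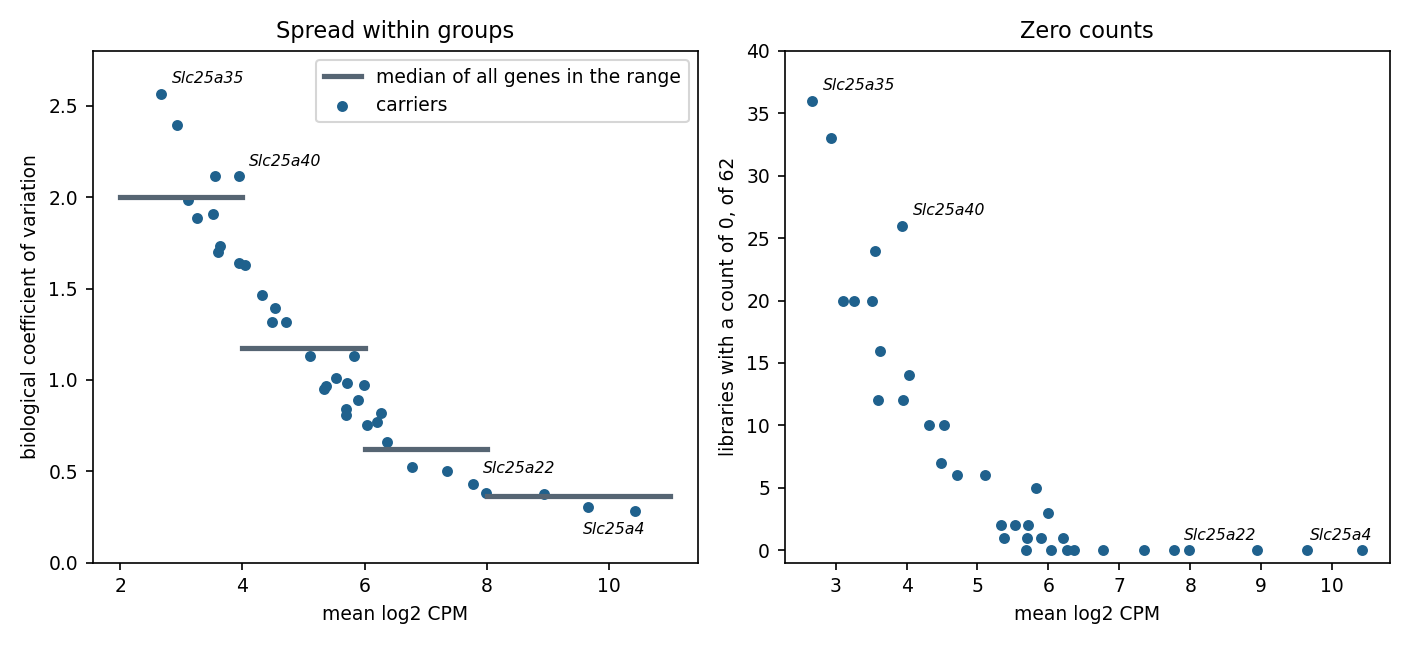
Left, biological coefficient of variation within groups (y axis) against the mean log2 CPM (x axis) of the 36 carriers (points), with the median of all genes in 4 ranges of level (bars). Right, number of the 62 libraries with a count of 0 (y axis) against the mean log2 CPM. Slc25a4 has the highest level and a coefficient of 0.28, and Slc25a35 the lowest level, a coefficient of 2.57 and 36 libraries at 0.

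The first comparison asked which carriers differ between the regions. PFC was contrasted with NAc in CTR mice, and again in mCRS mice with other libraries, by edgeR's quasi-likelihood test with Benjamini-Hochberg adjustment (FDR) over all genes tested. In CTR mice 1 of the 31 carriers tested was higher in the PFC and 0 were lower, where 4.23% of all 9932 genes were higher and 2.09% lower at an FDR below 0.05. In mCRS mice 0 of 31 carriers were higher and 1 was lower, with 4.23% of all 9452 genes higher and 2.07% lower. The groups of libraries in both contrasts are different, so the calls in one do not enter the other. The carrier called in CTR was Slc25a22 and that called in mCRS was Slc25a23, so 0 carriers were called in both. Of all genes tested in both, 371 were called in both, 60.2% of the 616 calls in CTR and 62.6% of the 593 calls in mCRS. The median log2 fold change of the carriers was -0.12 in CTR and -0.24 in mCRS, and that of all genes was -0.02 and -0.03.

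Slc25a22 (ENSMUSG00000019082, chromosome 7, 141429744 to 141437892, minus strand, GRCm38) encodes a glutamate carrier of the inner membrane. Its level was 84.2 CPM in the lowest, 154 in the median and 212 in the highest of the 16 NAc CTR libraries. In the 15 PFC CTR libraries it was 201 CPM in the lowest, 304 in the median and 458 in the highest. All 15 PFC CTR libraries lay above the median of NAc CTR, and 11 of them lay above the highest NAc CTR library, so the groups overlapped only at their edges. The log2 fold change of PFC against NAc was 0.91 (SE 0.17, FDR = 0.00012). Mean log2 CPM was 8.14 ± 0.40 (SD, n = 15) in PFC CTR and 7.24 ± 0.36 (SD, n = 16) in NAc CTR.

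In mCRS mice the PFC and NAc levels of Slc25a22 lay closer together. The interaction of region and treatment, given below, did not pass the FDR threshold for it (-0.72, SE 0.30). PFC mCRS libraries reached from 48.8 over a median of 205 to 448 CPM, and NAc mCRS libraries from 95.7 over a median of 174 to 391.6 CPM. Here 9 of the 15 PFC mCRS libraries lay above the median of NAc mCRS and 1 above its highest library. The log2 fold change was 0.19 (SE 0.25, 95% interval -0.31 to 0.68, FDR = 0.85), and the SD of log2 CPM was 0.87 in PFC mCRS and 0.63 in NAc mCRS. From high to low the group means were 8.14 (PFC CTR), 7.61 (PFC mCRS), 7.52 (NAc mCRS) and 7.24 (NAc CTR). Neighbours in this order differed by less than 1 SD of the more variable group.

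Slc25a23 (chromosome 17, 57043711 to 57059863, minus strand) was called in mCRS and not in CTR. Its interaction did not pass the FDR threshold either (-0.55, SE 0.26). In CTR mice its level was 252 CPM in the median NAc library (186 to 658) and 254 CPM in the median PFC library (148 to 426), and the log2 fold change was -0.13 (SE 0.17, FDR = 0.87). In mCRS mice the median was 280 CPM in the NAc (156 to 472) and 164 CPM in the PFC (99.1 to 325), with 13 of 15 PFC libraries below the NAc median and 7 below the lowest NAc library. The log2 fold change was -0.68 (SE 0.19, FDR = 0.0178). With a covariate for the share of genes detected in each library it was -0.56 and the call was lost (FDR = 0.113). That share was 82.3% ± 6.22 (SD, n = 15) in PFC mCRS and 88.5% ± 7.43 (SD, n = 16) in NAc mCRS libraries, and its part in the result was not otherwise tested. The genes Crb3 and Gm17168 overlap Slc25a23 on the opposite strand. Since the strand setting of the counting is not given in the sources used here, reads of such partners cannot be told apart from those of the carrier.

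**Figure D2:**
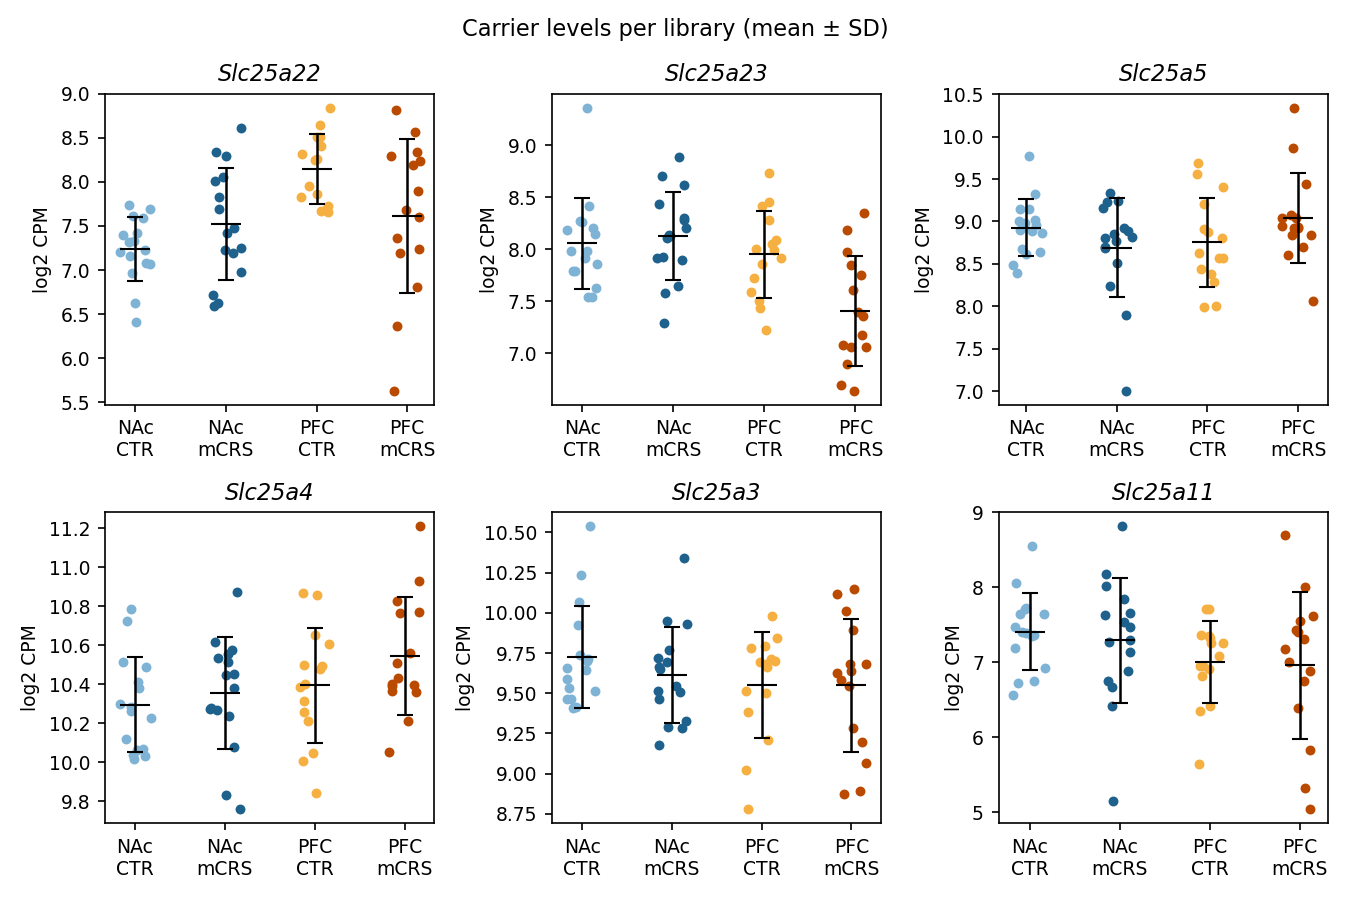
log2 CPM (y axis) of 6 carriers in each library (points) of the 4 groups (x axis), with the mean and SD as black bars. Slc25a22 has its highest mean in PFC CTR (8.14) and its lowest in NAc CTR (7.24), Slc25a23 is lowest in PFC mCRS (7.41), and the groups overlap for Slc25a4, Slc25a3 and Slc25a11.

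In a fit over all 62 libraries that averages the region contrast over both treatments, chosen after the values had been seen, both carriers passed. Slc25a22 was higher in the PFC by a log2 fold change of 0.54 (SE 0.15, FDR = 0.0068) and Slc25a23 was lower, at -0.41 (SE 0.13, FDR = 0.0202). They were 1 carrier higher and 1 lower of 36, where 6.68% of all 11025 genes were higher and 4.65% lower. The call of Slc25a23 rested in part on the library NAc CTR 1, its highest at 658 CPM, and without that library its log2 fold change was -0.34 (FDR = 0.0555). Without NAc CTR 7 the values were 0.54 for Slc25a22 and -0.42 for Slc25a23, and without NAc mCRS 10 they were 0.53 and -0.39, and both passed in each case. Within CTR, Slc25a22 kept a log2 fold change of 0.90 (FDR = 0.000199) without NAc CTR 7, and within mCRS Slc25a23 kept one of -0.64 (FDR = 0.0359) without NAc mCRS 10.

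The most abundant carriers did not pass in either region contrast, and their intervals were narrow. Slc25a4 (chromosome 8, 46206797 to 46211284, minus strand) had medians of 1237 CPM in NAc CTR, 1364 in NAc mCRS, 1349 in PFC CTR and 1381 in PFC mCRS libraries. Its log2 fold change of PFC against NAc was 0.10 (95% interval -0.11 to 0.31) in CTR and 0.21 (-0.02 to 0.43) in mCRS. Slc25a3 (chromosome 10, 91116574 to 91124059, minus strand) had values of -0.19 (-0.44 to 0.06) and -0.03 (-0.30 to 0.24). These intervals leave room for differences of at most 0.44 on the log2 scale in either direction. Slc25a5 (chromosome X, 36795651 to 36798807, plus strand) was at -0.12 in CTR and at 0.37 (95% interval 0.01 to 0.74, FDR = 0.31) in mCRS.

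The balance between carriers of related function was read as a log2 ratio of counts within each library, with 0.5 added to each count. Slc25a22 over Slc25a12 was 1.79 ± 1.21 (SD, n = 15) in PFC CTR, 0.68 ± 0.62 (SD, n = 16) in NAc CTR, 0.84 ± 1.31 (SD, n = 15) in PFC mCRS and 0.74 ± 0.89 (SD, n = 16) in NAc mCRS libraries. Slc25a4 over Slc25a5 was 1.64 ± 0.60 in PFC CTR, 1.37 ± 0.49 in NAc CTR, 1.51 ± 0.57 in PFC mCRS and 1.67 ± 0.63 in NAc mCRS libraries. The highest group mean of the first ratio was that of PFC CTR, and its differences from the other groups were smaller than the SD of PFC CTR. Its differences from NAc CTR and NAc mCRS were larger than the SD of the NAc group in question. Differences between groups in the second ratio were smaller than the SD of each group. These ratios are of counts and not of protein, and no test was run on them.

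The leading carriers of the other groups were also measured in both contrasts, and none of them passed the test. Slc25a11 was at -0.41 (SE 0.21) in CTR and -0.24 (SE 0.28) in mCRS, and its gene overlaps Rnf167 on the opposite strand. Slc25a14 was at 0.59 (SE 0.46) and 0.70 (SE 0.36), Slc25a46 at 0.53 (SE 0.32) and 0.46 (SE 0.38), and Slc25a39 at -0.69 (SE 0.36) and -0.62 (SE 0.47). Slc25a44 was at -0.08 (SE 0.43) and 0.27 (SE 0.43). By group, 2 of 10 tested carriers of cofactors, nucleotides, iron and glutathione had a log2 fold change above 0 in CTR and 1 of 9 in mCRS, where 48.9% and 48.1% of all genes did. Of the carriers of other di- and tricarboxylates 0 of 2 and 0 of 3 were above 0, of those of adenine nucleotides and phosphate 2 of 8 and 4 of 8, of those of amino acids and acylcarnitine 2 of 4 and 3 of 5, of those of aspartate and glutamate 2 of 3 in both, and of the uncoupling-protein-like carriers 2 of 3 and 1 of 2. These counts describe directions only, and 0 of the carriers in them other than Slc25a22 and Slc25a23 passed the FDR threshold. The carriers that could not be tested in CTR for their low counts were Slc25a10, Slc25a15, Slc25a34, Slc25a35 and Slc25a53, and in mCRS they were Slc25a30, Slc25a34, Slc25a35, Slc25a37 and Slc25a40. For Slc25a37 and Slc25a40, 50.0% and 40.9% of the 70-base windows near the 3′ end also occur in transcripts of another gene (Gm16867 and Gm5066), so their counts are uncertain, and no such window was found for the other 34.

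**Figure D3:**
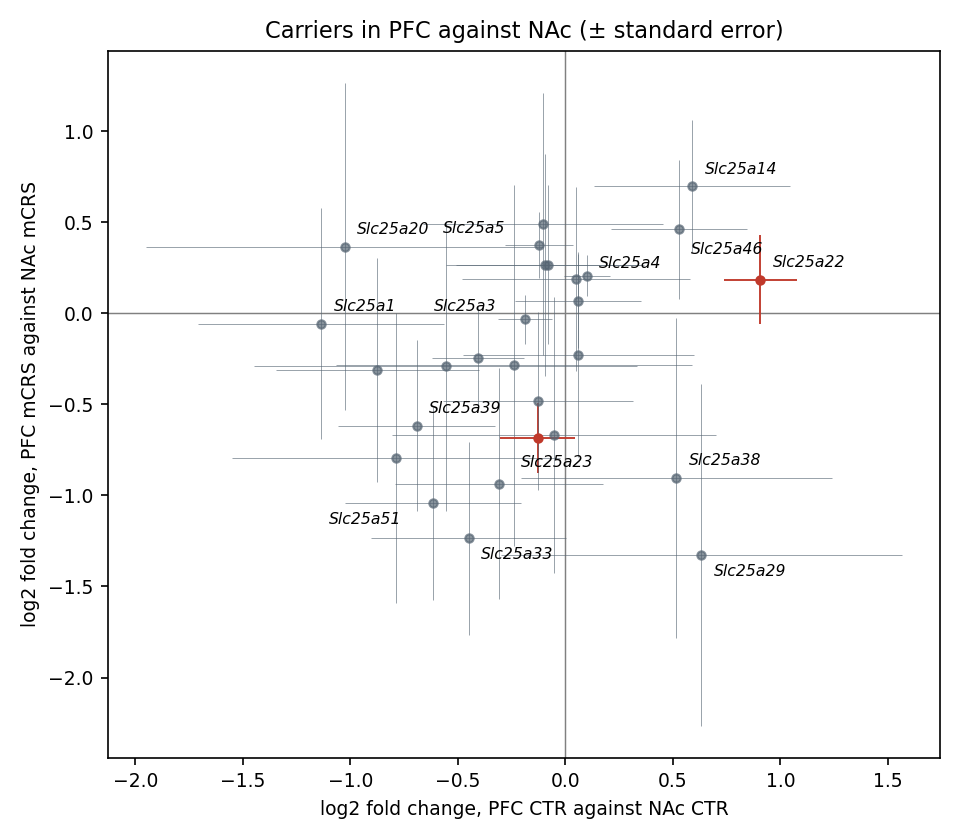
log2 fold change of PFC against NAc in CTR mice (x axis) and in mCRS mice (y axis) for the 28 carriers tested in both, with standard errors as bars. Red marks the carriers past an FDR of 0.05 in either contrast: Slc25a22 lies at 0.91 and 0.19, Slc25a23 at -0.13 and -0.68.

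The regions differ in their cells, and some of the marker lists moved with the same contrasts at the FDR threshold. Of 9 striatal projection neuron genes, 9 were lower in the PFC in CTR and 9 in mCRS. Of the cortical excitatory neuron genes 4 of 5 were higher in CTR and 4 of 4 in mCRS, and of the oligodendrocyte genes 5 of 6 were lower in both. Interneuron genes were split, with 1 higher and 2 lower of 5 in CTR and 2 and 2 in mCRS. Of the astrocyte genes 1 of 6 was lower in both contrasts, and 0 of the microglia and endothelium genes passed in either. Of the choroid plexus genes 1 of 2 was higher in CTR and 1 of 2 lower in mCRS. The mtDNA genes, which mark no cell type, were higher in 6 of 7 and 7 of 7 cases. Summed CPM of the 6 oligodendrocyte genes was 1712 to 5971 in PFC CTR, 2470 to 6854 in PFC mCRS, 5214 to 7911 in NAc CTR and 4992 to 8241 in NAc mCRS libraries. Cortical excitatory genes summed to 657 to 1385 CPM in PFC mCRS and 29.6 to 442 CPM in NAc mCRS. Of the 5 genes of this list, 4 were at 0 in at least 1 library of NAc CTR, but none was at 0 in every library of a group. The part of these cells in the levels of Slc25a22 and Slc25a23 was not tested.

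Genes that work beside the carriers were followed with lists of enzymes and transporters. From the list of glutamate and glutamine metabolism, Glul (glutamine synthetase) and Glud1 (glutamate dehydrogenase) did not pass. Their values were -0.14 and -0.29 in CTR. A further gene of that list is not reported here, so these values do not stand for the whole list. Of the 7 enzymes of the NADH shuttles 1 was called higher in each contrast, and it was Mdh1, the cytosolic malate dehydrogenase (0.39, SE 0.11, FDR = 0.0228 in CTR, and 0.89, SE 0.13, FDR = 9.4e-07 in mCRS). Gpd2 (0.81, FDR = 0.0644) and Mdh2 (0.18, FDR = 0.76) were next in CTR.

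Among relatives that carry other symbols, 0 of 3 passed in CTR. In mCRS 2 of 3 were lower in the PFC, Mtch1 (-0.54, SE 0.16, FDR = 0.0306) and Ucp2 (-3.20, SE 0.97, FDR = 0.0302), and Mtch2 was at 0.52. Ucp2, an uncoupling protein, had a count of 0 in 8 of 15 PFC mCRS libraries. Of the other transporters of the mitochondrial membranes, 0 of 16 tested passed in CTR, with Sfxn1 at 0.64 (FDR = 0.14), Micu3 at 0.58 (FDR = 0.17) and Mpc2 at 0.51 (FDR = 0.20). In mCRS 1 of 15 passed, which was Mpc2, a subunit of the pyruvate carrier (0.72, SE 0.19, FDR = 0.0076). None of the tested genes of iron-sulfur cluster assembly (5), the carnitine shuttle (3) or ornithine metabolism (1) passed in CTR. Their values of smallest p were Isca2 at -0.42, Cpt1c at -0.39 and Oat at 0.07.

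The second comparison asked whether mCRS changed the carriers within a region. In the PFC, 28 carriers were tested and 0 passed an FDR of 0.05, as did 0% of all 8916 genes in either direction. At an unadjusted p below 0.05 there were 0 carriers higher and 1 lower, where 2.12% of all genes were higher and 1.38% lower. DESeq2 also called 0 carriers, and 3 of the 36 it tested had an unadjusted p below 0.05. Of the 11119 genes tested with it, 5 were called and 576 had such a p. The median log2 fold change of the carriers was 0.07 and that of all genes -0.01.

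The carrier of smallest p in the PFC was Slc25a23, with a median of 254 CPM in CTR and 164 CPM in mCRS libraries. Of the 15 mCRS libraries 13 lay below the CTR median and 7 below the lowest CTR library, while 3 CTR libraries lay above the highest mCRS library. The log2 fold change was -0.49 (SE 0.20, 95% interval -0.90 to -0.09, unadjusted edgeR p = 0.0183, FDR = 1.0), so this difference did not pass the correction over all genes. With the same covariate, 0 carriers had an unadjusted p below 0.05. Slc25a20, the carnitine-acylcarnitine carrier, followed at 1.79 (SE 0.95, FDR = 1.0), with medians of 2.20 CPM in CTR and 14.5 CPM in mCRS. It was at 0 in 6 CTR libraries and in 1 mCRS library. Slc25a5 was at 0.32 (SE 0.19), Slc25a22 at -0.34 (SE 0.22) and Slc25a4 at 0.18 (SE 0.12), all with an FDR of 1.0. For Slc25a4 the 95% interval was -0.05 to 0.41 and for Slc25a3 it was -0.23 to 0.32. Intervals lay within 1 on the log2 scale for 8 of the 28 carriers and reached beyond it for the other 20. All 7 mtDNA genes had positive log2 fold changes in the same contrast, from 0.25 to 0.59. All 7 had an unadjusted edgeR p below 0.05, where 2.12% of all genes were higher. At the FDR threshold 0 of them passed, as did 0% of all genes. The share of genes detected was 87.1% ± 4.42 (SD, n = 15) in PFC CTR and 82.3% ± 6.22 (SD, n = 15) in PFC mCRS.

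In the NAc 34 carriers were tested, and 0 passed an FDR of 0.05 and 0 had an unadjusted p below 0.05. Of all 10141 genes, 0.00986% were higher and 0% lower at the FDR threshold, and 0.986% and 1.06% at the unadjusted one. The single gene past the FDR threshold was Ttr, one of the choroid plexus genes that set NAc mCRS 10 apart. DESeq2 called 0 carriers and gave 1 of 36 an unadjusted p below 0.05. Of the 11121 genes tested with it, 0 were called and 393 had such a p. The median log2 fold change of the carriers was 0.13, and that of all genes was -0.01.

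Slc25a22 had the smallest p in the NAc, at a log2 fold change of 0.37 (SE 0.20, 95% interval -0.03 to 0.77, FDR = 1.0). Its median was 154 CPM in CTR and 174 CPM in mCRS libraries, and 6 of the 16 mCRS libraries lay above the highest CTR library. Slc25a53 was at 1.58 (SE 0.93), with medians of 1.13 and 11.7 CPM, and Slc25a10 at 1.31 (SE 0.93), with medians of 1.78 and 4.54 CPM. Without NAc mCRS 10, the library with the choroid plexus genes, the value of Slc25a10 was 0.69. For each of these carriers 7 of the 62 libraries held 50% of the summed CPM. Slc25a5 was at -0.19 (SE 0.15) and Slc25a51 at 0.40 (SE 0.39). The intervals of 12 of the 34 carriers lay within 1 on the log2 scale, among them Slc25a4 (-0.14 to 0.27) and Slc25a3 (-0.35 to 0.12). These values changed by less than their SE without NAc CTR 7 or NAc mCRS 10 for Slc25a22 (0.37 and 0.40) and Slc25a5 (-0.18 in both).

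**Figure D4:**
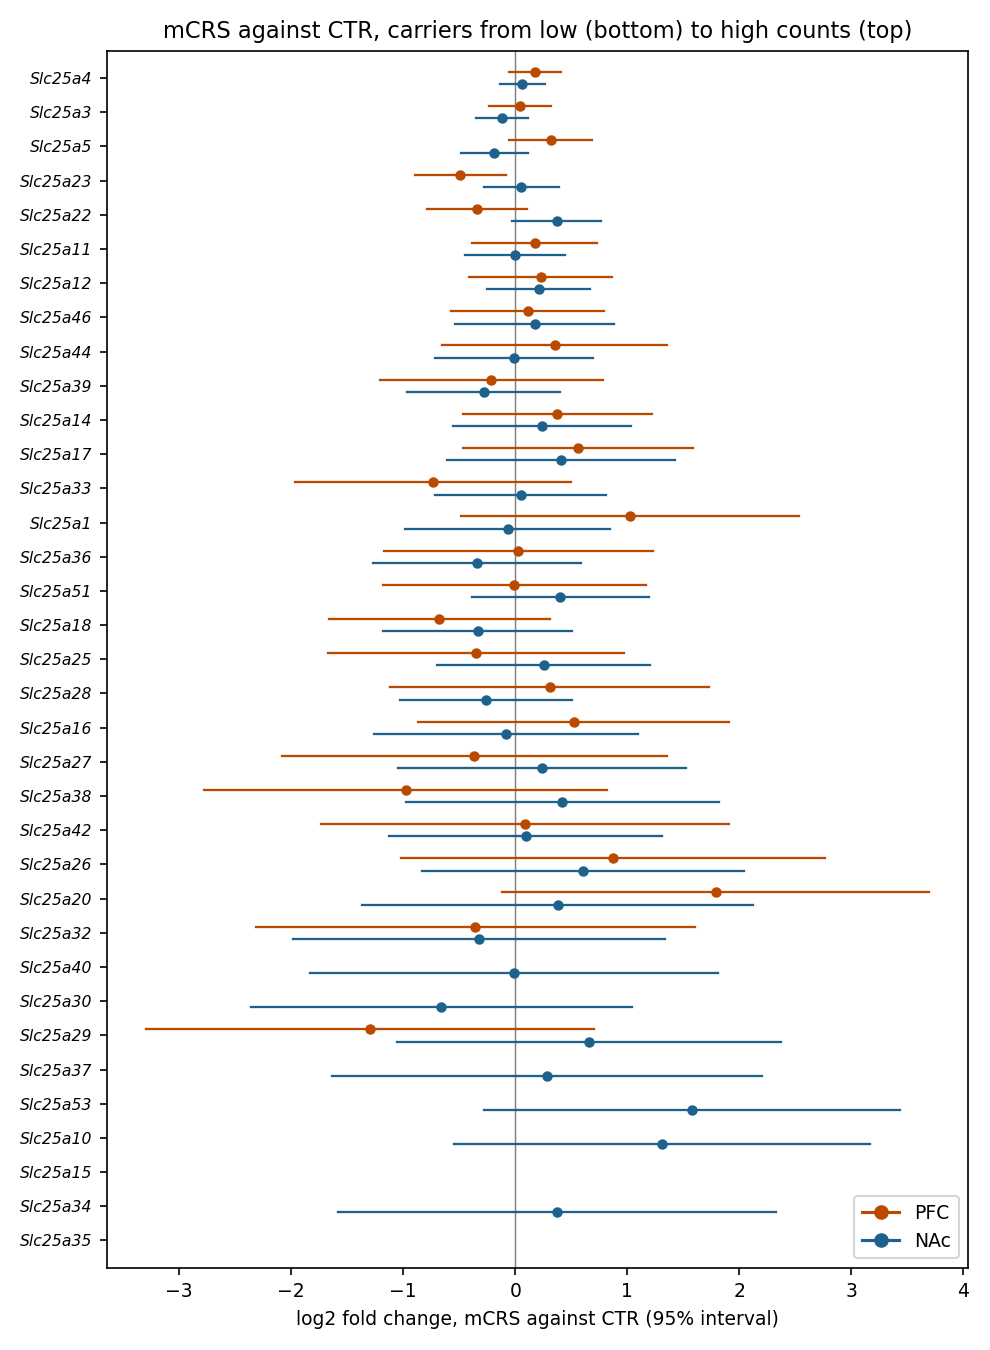
log2 fold change of mCRS against CTR (x axis) with its 95% interval for the carriers tested in the PFC (orange) and the NAc (blue), with 1 carrier not drawn, ordered by mean level from high (top) to low (bottom). Intervals are narrow for Slc25a4 and Slc25a3 and wide at the bottom, and the PFC interval of Slc25a23 (-0.90 to -0.09) is the only one that leaves out 0.

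The third comparison asked whether the effect of mCRS differed between the regions, as an interaction term (region by treatment) fitted to the 62 libraries. Of the 36 carriers 0 passed an FDR of 0.05, where 0.00907% of all 11025 genes were higher and 0% lower, the single gene called being Rspo2. DESeq2 gave 0 of 36 carriers at its adjusted threshold and 3 at an unadjusted p below 0.05. Of the 11121 genes tested with it, 1 passed the adjusted and 463 the unadjusted threshold. With edgeR, 1 carrier was above 0 and 2 below at an unadjusted p below 0.05, where 1.45% and 1.64% of all genes were. These were Slc25a22 (-0.72, SE 0.30, unadjusted edgeR p = 0.0186), Slc25a23 (-0.55, SE 0.26, p = 0.0332) and Slc25a5 (0.50, SE 0.24, p = 0.0445), each with an FDR of 1.0. For Slc25a22 the estimates behind it were -0.34 in the PFC and 0.37 in the NAc, for Slc25a23 -0.49 and 0.06, and for Slc25a5 0.32 and -0.19. Slc25a29 (-1.94, SE 1.39) and Slc25a38 (-1.40, SE 1.13) came next, with p values above 0.05. The region contrasts, the mCRS contrasts and the interaction draw on the same libraries and are not independent of each other.

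Of the genes that work beside the carriers, 0 passed the FDR threshold for mCRS in the PFC, for mCRS in the NAc or for the interaction. Mdh1 was at 0.42 (SE 0.14, FDR = 0.87) in the PFC, -0.09 (SE 0.10, FDR = 1.0) in the NAc and 0.50 (SE 0.17, FDR = 1.0) in the interaction. Over the lists of related transporters and enzymes, the mCRS contrast of the PFC gave 4 genes an unadjusted p below 0.05. Mdh1 and Oat were above 0, Tspo and Vdac2 below 0. They were 1 of 7 tested enzymes of the NADH shuttles, 1 of 1 gene of ornithine metabolism and 2 of 15 other transporters. Of all genes, 2.12% were higher and 1.38% lower at that threshold. The NAc contrast gave 0 of the listed genes such a p, where 0.986% of all genes were higher and 1.06% lower. Whether the lists differ from these shares was not tested. Tspo and Vdac2 were picked out after their values had been seen.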

How the data were processed

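Total RNA of 62 tissue samples was made into BRB-seq libraries, which tag transcripts at the 3′ end. According to the submitters' processing notes the authors used bcl2fastq, STAR (mm10) and HTSeq 0.9.1, and they kept uniquely mapped reads and removed PFC libraries of poor quality. The deposited values are raw counts per Ensembl gene, with no molecular identifiers, and the strand setting is not given in the sources used here. Symbols and positions came from the GENCODE annotation of GRCm38. The members and lists were chosen with earlier results of these data known.

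Counts were tested with edgeR 4.0.16 (R 4.3.3, limma 3.58.1): TMM normalisation, filterByExpr by group, quasi-likelihood F-test and Benjamini-Hochberg adjustment over all genes tested, with calls at an FDR below 0.05. The region contrasts used the libraries of 1 treatment, the mCRS contrasts those of 1 region and the interaction all 62. SE was the absolute log2 fold change over the square root of F. Levels are CPM with TMM over all libraries, and log2 CPM used a prior count of 2. The fits were tested on simulated counts with known changes. Alternatives were DESeq2 1.42.0, other filters and scalings, covariates, a replicate block and leaving out each library. Named were the carriers with their group (certain genes are not reported here by name), carriers past the FDR threshold, the one with most counts per group, the 5 of smallest p per mCRS contrast and up to 3 related genes per list. p-values of the mCRS contrasts within a region measure the spread between animals. In the region contrasts and the interaction both regions of a mouse entered as independent libraries. The p-values of these fits therefore leave the pairing out.

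Same-numbered samples of different groups did not deviate together (correlations -0.03 to 0.05, 0 pairs over 0.1), so the numbers were taken not to pair them. No libraries known to share a mouse were at hand for comparison, so this check cannot exclude such a pairing. Library totals ranged from 945286 to 4857359 counts.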

Additional observations from a re-analysis of the deposited data

Results flagged for a closer look

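For 3 carriers the difference between mCRS and CTR was not alike in both regions by the interaction of region and treatment at an unadjusted p below 0.05 (edgeR quasi-likelihood test), and in none of them at an FDR below 0.05. For Slc25a22 the effect in the PFC minus that in the NAc was -0.72 (95% interval -1.32 to -0.12, FDR = 1.0), with 7 of 15 PFC mCRS libraries below the lowest PFC CTR library and 6 of 16 NAc mCRS libraries above the highest NAc CTR library. For Slc25a23 it was -0.55 (95% interval -1.06 to -0.05, FDR = 1.0), with 13 of 15 PFC mCRS libraries below the PFC CTR median and 10 of 16 NAc mCRS libraries above the NAc CTR median. For Slc25a5 it was 0.50 (95% interval 0.01 to 0.99, FDR = 1.0), with 13 of 15 PFC mCRS libraries above the PFC CTR median and 12 of 16 NAc mCRS libraries below the NAc CTR median. Without NAc CTR 7 the values were -0.72, -0.54 and 0.48, and without NAc mCRS 10 they were -0.75, -0.51 and 0.49, and in each case 2 of the 3 carriers had an unadjusted p below 0.05. Over all genes 1.45% had a positive and 1.64% a negative interaction at that threshold, and the 3 carriers are to be read beside these shares. No cause was tested.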

How the results depend on the processing

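The call of Slc25a22 in CTR held under every alternative run, with a log2 fold change of 0.85 to 0.94 (FDR at most 0.0022), and of 0.85 to 0.95 when 1 library was left out. The call of Slc25a23 in mCRS was lost with a covariate for the share of genes detected, which left 0 carriers called (-0.56, FDR = 0.113), and DESeq2 called 2, adding Slc25a35 (-5.65, FDR = 0.00031), which the edgeR filter had left out and which edgeR with no filter, testing 36 carriers, did not call either (1 carrier called, Slc25a23). Over both treatments DESeq2 called 4 of 36 carriers, adding Slc25a33 (-0.93) and Slc25a51 (-0.89), where it called 1625 of all 11121 genes. Slc25a33, Slc25a35 and Slc25a51 were picked out after their values had been seen. For mCRS in the PFC, carriers with an unadjusted p below 0.05 numbered 3 by DESeq2, 2 with no filter and 3 with the replicate block. They numbered 0 with the covariate and 2 with all 62 libraries in one fit. Of all genes, 576 of 11119, 442 of 11119, 415 of 8916, 184 of 8916 and 541 of 11025 had such a p in the same order. In the NAc such carriers numbered 1 by DESeq2 and 1 with the covariate, beside 393 of 11121 and 245 of 10141 genes. The cause of these shifts was not tested.

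Direction turned for Slc25a39 between regions in mCRS with the covariate (0.0084), and with the replicate block for Slc25a44 in mCRS (-0.11) and over both treatments (-0.066) and for Slc25a51 in the NAc (-0.12). None of these passed a test in either form. In the fit with the replicate block 1 carrier was called in CTR, 1 in mCRS, 3 over both treatments, and 0 for mCRS or the interaction. Of all genes, 610 of 9932 were called in CTR, 588 of 9452 in mCRS and 1396 of 11025 over both treatments. This block groups libraries by sample number only. For mCRS against CTR, same-numbered libraries are of different mice, so it does not stand in for the pairing by mouse. Each library correlated best with its own number in 2 of 15, 1 of 16, 1 of 15 and 2 of 15 cases, so the block has no basis beyond the number.

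Leaving out 1 library at a time gave 1 to 1 called carriers in CTR, 1 to 1 in mCRS, 0 to 0 for mCRS in either region and the interaction, and 1 to 3 over both treatments (1 without NAc CTR 1, 3 without PFC mCRS 8, which added Slc25a35). At an unadjusted p below 0.05 it gave 1 to 3 in the PFC (3 without PFC CTR 1; 2 without PFC CTR 2, PFC CTR 13 or PFC mCRS 8), 0 to 1 in the NAc (1 without NAc CTR 2, 9 or 15 or NAc mCRS 1, 4, 9 or 16) and 1 to 4 for the interaction (1 without PFC CTR 7). Slc25a44 in CTR ran from -0.21 to 0.023, and Slc25a10 for mCRS in the NAc from 0.69 (without NAc mCRS 10) to 1.67. Between regions in mCRS, DESeq2 called 903 of 11121 genes. With edgeR it was 596 of 9452 genes after the filter and 672 of 11121 with no filter.

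Of the 290 zeros among 2232 values, 238 fell where at least 10 counts were expected, and what gave them was not tested.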
